A study of Mus musculus with 16 samples.

Results

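Open chromatin was described around 10 imprinted and fetal growth genes of mouse liver: H19, Igf2, Dlk1, Meg3, Mest, Igf2r, Peg3, Plagl1, Grb10 and Cdkn1c. Joining the peaks of 4 DNase-seq lists wherever they shared at least 1 bp gave 51482 regions of DNase hypersensitive sites (DHS), and every region that overlapped 1 of these genes or the 20 kb on either side of it was taken. The 10 windows held 38 of the 51482 regions. Regions are numbered within each gene in the direction of its transcription.

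DNase-seq counts fragments released from nuclei by DNase I, an enzyme that cuts open chromatin. Nuclei came from livers of male and female mice of 2 strains, C57BL/6J (B6), the strain of the reference genome, and CAST/EiJ (CAST), a wild-derived inbred strain of a different subspecies, and the study compared the sexes within and between these strains. Mice were 8 weeks old per the sample labels, and nuclei of all 16 libraries, 4 for each sex and strain, were digested with 32 units of the enzyme. These libraries were kept after others had been set aside for sample quality. The 4 libraries of a group were merged before peaks were called, so each group is 1 list without replicate error, no test over animals could be made, and all comparisons below describe lists. Both strains are inbred, so maternal and paternal chromosomes carry the same sequence and could not be told apart. In nuclei of whole liver, a site open in fewer cells and a site less open per cell cannot be told apart.

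An imprinted gene is expressed mainly from the chromosome inherited from 1 parent, under the control of a DNA element whose methylation differs between the parental chromosomes. Many imprinted genes set fetal growth: Igf2 encodes a fetal growth factor, Igf2r the receptor that removes it, Grb10 an adaptor that dampens insulin and IGF receptor signalling, and Cdkn1c an inhibitor of the cell cycle. Several of these genes are highly expressed in fetal liver and are shut down after birth.

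The value given for each DHS is its fold enrichment, the summit pileup (reads stacked at the highest base, plus 1) over the local background of its list (plus 1). The genome-wide background recovered from the lists was 15.35 reads in B6 males and 13.93 in B6 females, and 14.25 in CAST males and 7.94 in CAST females. The lowest fold enrichment called at that background was 1.90, 1.94, 1.90 and 2.24 in that order (male B6, female B6, male CAST, female CAST), and a missing DHS means only that no peak passed the list's q-value limit of 0.05. That value is not a lower bound for a list, since peaks at sites with a higher local background were called at lower fold enrichments, and each multiple of a lowest callable value below refers to the genome-wide background. The lists held 38751, 26271, 39562 and 24888 peaks in that order. Promoters of 5 of 6 hepatocyte marker genes had a DHS within 1 kb of a start site in all 4 lists, and the sixth, Apoa1, had one in both male lists. Of 5 Kupffer cell and 4 blood cell markers found in the annotation, none had one in any list. Of 5 stellate cell markers 1 had one, in both male lists, of 4 bile duct markers 1, in all 4 lists, and of 4 markers of sinusoidal endothelium all had one in at least 1 list. These differed between the lists: Lyve1 (2.17) and Pecam1 (2.08) had one in male B6 alone and Kdr in both B6 lists (2.55 in males and 2.35 in females). The Lyve1, Pecam1 and female Kdr values lay near the lowest fold enrichments callable. The Stab2 promoter had fold enrichments of 3.59 in B6 males and 2.81 in B6 females, and 8.13 in CAST males and 5.45 in CAST females. The part of these marker differences in the strain comparisons below was not tested.

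Sequences are shown for the regions on which the results turn. All are read 5′ to 3′ from the plus strand of mm9, the B6 reference, lie outside annotated UTRs, and carry motif matches in capitals. The first set is shown because the only region at Peg3 held a row of matches to AANATGGCG, the core of the motif of YY1, a zinc finger protein that can activate or repress transcription. There were 8 matches, all on the plus strand, within 1753 bases, and each is printed with 12 bases on either side.
Peg3 YY1 match 1, chr7:6680544-6680576: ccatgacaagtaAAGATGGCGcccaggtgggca
Peg3 YY1 match 2, chr7:6680663-6680695: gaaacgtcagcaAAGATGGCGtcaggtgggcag
Peg3 YY1 match 3, chr7:6681101-6681133: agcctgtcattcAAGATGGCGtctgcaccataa
Peg3 YY1 match 4, chr7:6681150-6681182: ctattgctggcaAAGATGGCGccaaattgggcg
Peg3 YY1 match 5, chr7:6681438-6681470: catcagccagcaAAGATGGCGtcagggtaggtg
Peg3 YY1 match 6, chr7:6681579-6681611: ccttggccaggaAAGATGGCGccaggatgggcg
Peg3 YY1 match 7, chr7:6682182-6682214: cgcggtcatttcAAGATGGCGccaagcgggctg
Peg3 YY1 match 8, chr7:6682288-6682320: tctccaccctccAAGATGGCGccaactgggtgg
All 8 matches read AAGATGGCG. Of windows of the same length, 2128 bases, around the summits of all 51482 regions, 4.41% held at least 1 match on either strand, 0.289% at least 2, and 16 windows held 8 or more. The 2 counts are not like for like, since the Peg3 matches were counted between the borders of the region. A window centred on the highest Peg3 summit, at base 6680851 in male CAST, ends before matches 7 and 8.

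The next sequences are shown as examples of the patterns of presence described below. Igf2 region 1, chr7:149847776-149848055, was found in males alone. Grb10 region 12, chr11:11828519-11828818, had the highest fold enrichment of the regions found in all 4 lists. Grb10 region 9, chr11:11845951-11846250, was high in a single list. Grb10 region 7, chr11:11860919-11861218, was found in both CAST lists alone.
Igf2 region 1: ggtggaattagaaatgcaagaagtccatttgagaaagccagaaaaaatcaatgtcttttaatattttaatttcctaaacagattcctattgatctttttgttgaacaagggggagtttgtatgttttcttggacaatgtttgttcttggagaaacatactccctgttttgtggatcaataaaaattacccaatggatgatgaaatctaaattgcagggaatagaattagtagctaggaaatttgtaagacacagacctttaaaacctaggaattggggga
Grb10 region 12: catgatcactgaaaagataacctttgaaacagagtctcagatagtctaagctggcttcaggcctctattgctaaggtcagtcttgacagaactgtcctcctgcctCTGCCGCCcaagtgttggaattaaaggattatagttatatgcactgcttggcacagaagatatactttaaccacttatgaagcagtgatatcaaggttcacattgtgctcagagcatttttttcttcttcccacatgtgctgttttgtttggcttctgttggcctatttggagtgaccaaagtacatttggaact
Grb10 region 9: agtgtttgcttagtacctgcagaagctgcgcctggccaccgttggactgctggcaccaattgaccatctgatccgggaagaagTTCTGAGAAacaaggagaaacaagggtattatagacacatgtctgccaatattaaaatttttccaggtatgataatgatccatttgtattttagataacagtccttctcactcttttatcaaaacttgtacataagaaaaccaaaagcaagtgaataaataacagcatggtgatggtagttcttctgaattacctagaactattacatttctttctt
Grb10 region 7: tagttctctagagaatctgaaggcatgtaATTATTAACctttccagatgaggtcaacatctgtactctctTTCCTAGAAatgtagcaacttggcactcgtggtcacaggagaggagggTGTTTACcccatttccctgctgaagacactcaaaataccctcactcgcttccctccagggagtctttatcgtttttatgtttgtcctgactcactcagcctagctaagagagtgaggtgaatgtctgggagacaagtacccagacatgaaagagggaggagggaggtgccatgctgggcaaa
The capitals in Grb10 region 12 mark a match to the reverse complement of GGNGGCAG, the core of the motif of the insulator protein CTCF, and the same letters hold TGCCGC, the motif of ZFP57, a protein that keeps the methylation of imprinted control elements. In Grb10 region 9 they mark TTCNNNGAA, the motif of STAT5, a factor activated by growth hormone. In Grb10 region 7 they mark, in order, the reverse complement of GTTAATNAT (HNF1), then TTCNNNGAA (STAT5) and TGTTTAC (FOXA). No searched motif was found in the stretch printed for Igf2 region 1, and the whole region held 1 match, to the STAT5 motif.

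Part of the CpG-rich DHS at the Igf2r promoter is shown to set beside these, a stretch of Igf2r region 1 outside UTRs, chr17:12962292-12962399. It lies inside the gene, downstream of the outermost start at base 12962530. Read from the minus strand, as Igf2r is, it begins with ATG and holds no stop codon in that frame. It is therefore not sequence upstream of the start.
Igf2r region 1: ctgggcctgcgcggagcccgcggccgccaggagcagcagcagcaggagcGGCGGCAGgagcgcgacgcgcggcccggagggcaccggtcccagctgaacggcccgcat
Capitals mark a CTCF core match, which also holds TGCCGC on the opposite strand.

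The 38 regions were unevenly spread over the 10 genes. Grb10 had 14 regions and Igf2r 11, and both genes are long, with 108176 and 87259 bases. Cdkn1c had 4 regions, Meg3 3, Igf2 2, and H19, Dlk1, Mest and Peg3 had 1 each. Plagl1, which encodes a zinc finger regulator of a network of imprinted genes, had none, and the nearest region lay 67633 bp from a Plagl1 start site. A window without any region was found for 25.7% of 26225 annotated genes, and 1.39% of them had as many regions as Grb10 or more. Over all annotated genes the median was 2 regions per window.

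**Figure D1:**
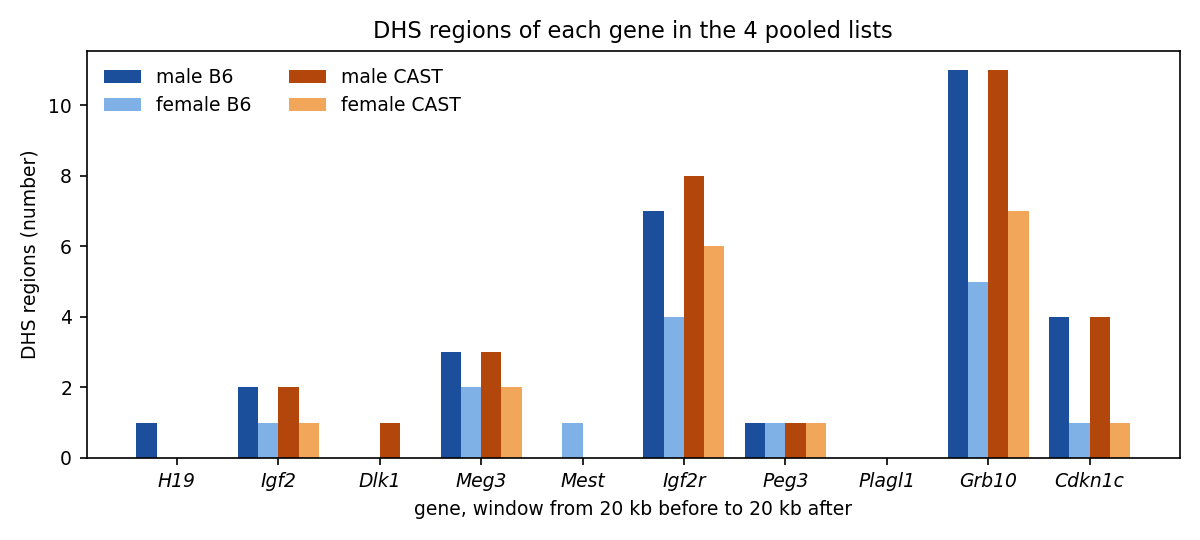
Number of DHS regions (vertical axis) in the window of each of the 10 genes (horizontal axis), with 1 bar for each pooled list. Grb10 and Igf2r hold 25 of the 38 regions, Plagl1 none, and the male bars are at least as tall as the female bars of the same strain at each gene except Mest.

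Few of the genes had a DHS at a start site in every list. No DHS lay within 1 kb of any annotated start of H19, Dlk1, Meg3, Mest or Plagl1 in any list, that is at 5 of 10 genes, where 49% of annotated genes had none. A promoter DHS in all 4 lists was found for Igf2r and Grb10, that is for 2 of 10 genes, where 39.1% of annotated genes had one. Igf2 and Peg3 met the 1 kb limit in the male lists alone, and Cdkn1c in all lists but female B6. The promoters without a DHS varied in CpG content: from 250 bases before to 50 after the outermost start, they had an observed over expected CpG ratio of 0.60 at H19, 0.59 at Meg3, 0.62 at Plagl1, 0.43 at Dlk1 and 0.20 at Mest, with a median of 0.49 over annotated genes. The corresponding ratios were 0.90 at Igf2r, 1.05 at Cdkn1c, 0.49 at Grb10, 0.46 at Peg3 and 0.10 at Igf2.

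H19 and Igf2 are neighbours on chromosome 7 that share enhancers, H19 being a maternally expressed noncoding RNA. H19 (chr7:149761434-149764048) had a single weak DHS in its window, 8953 bp from the outermost start to the region's centre and past the end of the gene (chr7:149754953-149755238). It was found in male B6 alone, with a fold enrichment of 2.02, a −log10 q of 2.11 and a summit pileup of 32 reads (exact Poisson 95% interval 21.9 to 45.2). This was close to the lowest value that could be called, and 6992 of 7336 regions found in male B6 alone had a q-value at least as low.

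At Igf2 (chr7:149836673-149852721) a DHS covered annotated start sites and a UTR exon in males of both strains and was not called in females. Igf2 region 1 (chr7:149847586-149848227) had a fold enrichment of 3.83 in male B6 and 4.05 in male CAST, and its summit was at base 149847906 in both lists. Neither female list held a peak. The male values were 1.97 and 1.81 times the lowest fold enrichment callable at the genome-wide background in the female list of the same strain. The printed stretch is rich in A and T: GC was 33.7% over the 300 bases around the summit, which held no CpG. Igf2 region 2 (chr7:149816466-149817275), 19398 bp past the gene in the direction of H19, was present in all 4 lists with fold enrichments of 2.63 in B6 males and 2.98 in B6 females, and 3.67 in CAST males and 3.37 in CAST females. It was thus open in the females that lacked region 1, and it was the member region whose male to female ratio in B6 ranked lowest, at percentile 2.71 of all regions shared by those lists. The counting interval of that ratio, with each summit pileup divided by its local background, was 0.57 to 1.36 and held the median ratio of all regions, and in CAST the male to female ratio was at percentile 31.4.

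Dlk1 and Meg3 form another imprinted pair, on chromosome 12. Dlk1, a membrane protein of the Notch ligand family that marks fetal liver progenitors, had 1 DHS, 16065 bp upstream (chr12:110674638-110674968), in male CAST alone, with a fold enrichment of 3.54 and a −log10 q of 12.7. Of the 7844 regions found in male CAST alone, 1018 had a q-value at least as low as this one.

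Meg3, a maternally expressed noncoding RNA, had 3 DHS upstream of its start, in the interval between Dlk1 and Meg3 that is known to hold the control element of the pair. The deposited lists do not mark that element, so whether any of these DHS overlaps it was not tested. Meg3 region 1 (chr12:110759511-110760145), 19066 bp upstream, was present in all 4 lists, with fold enrichments of 5.87 in B6 males and 4.39 in B6 females, and 7.08 in CAST males and 3.69 in CAST females. Both male values lay above both female values, but fold enrichment was higher in males at most regions of the genome. The male to female ratio of region 1 was at percentile 52.8 of all shared regions in B6 and 98.2 in CAST. Region 2 (chr12:110765839-110766302), 12909 bp upstream, had 2.34 in B6 males, 3.50 in CAST males and 3.24 in CAST females and was absent in female B6. Region 3 (chr12:110769585-110770328), 8883 bp upstream, had 3.45 in B6 males, 2.57 in B6 females and 3.30 in CAST males and was absent in female CAST. None of the 3 regions touched a Meg3 start site, and no DHS was called inside the gene body.

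Mest and Peg3 are paternally expressed. Mest, a gene of the hydrolase family active in fetal tissues, had 1 DHS 10840 bp upstream (chr6:30662424-30662707), in female B6 alone, with a fold enrichment of 2.41 and a −log10 q of 3.78. It was the only member region found in a female B6 list and in no other. The value was 1.27 times the lowest callable in male B6.

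Peg3, a zinc finger protein, had the widest DHS of the group, and it was open in both sexes and both strains. The region (chr7:6680223-6682350) lay in an intron, 780 bp from the nearest start site, and spanned 2128 bp, where the median width was 637 bp for the 38 regions and 601 bp for all regions. Fold enrichment was 6.00 in B6 males and 5.24 in B6 females, and 6.01 in CAST males and 5.51 in CAST females. The 4 values were close: on the same background-scaled pileups, the male to female ratio was 1.13 in B6 (exact 95% interval for counting error 0.95 to 1.36) and 1.07 in CAST (0.88 to 1.31), and the CAST to B6 ratio was 1.0 in males (0.87 to 1.16) and 1.06 in females (0.85 to 1.33). All 4 intervals held 1 and also the median ratio of all regions in the same comparison. The width differed more than the height, with 2124 bp in B6 males and 1353 bp in B6 females, and 2019 bp in CAST males and 1479 bp in CAST females, so that the female peaks began more than 1 kb from the start site and were not counted as promoter DHS. The male B6 peak covered all 8 YY1 matches, the male CAST peak 7, and each female peak 6. With a promoter limit of 2.5 kb, Peg3 joined Igf2r and Grb10, for 3 genes with a promoter DHS in all 4 lists.

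**Figure D2:**
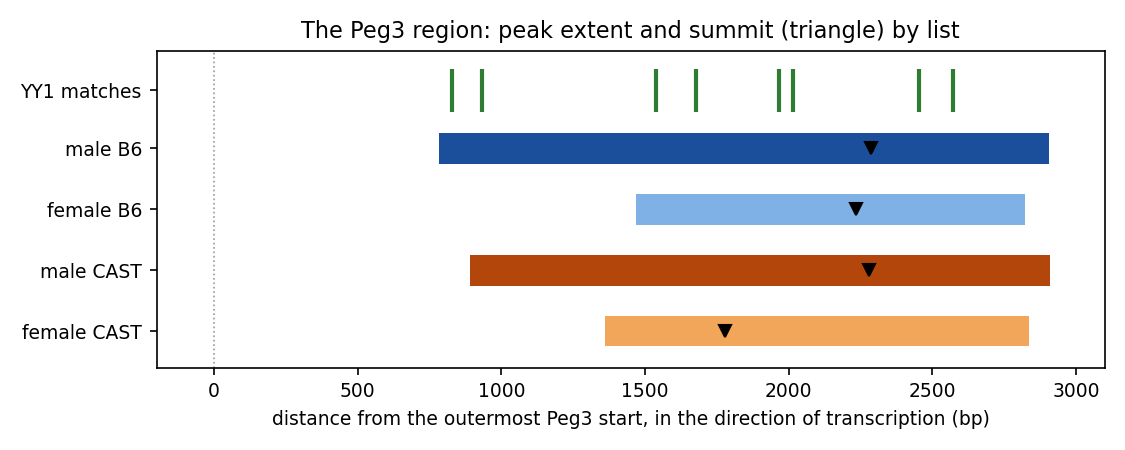
Extent of the Peg3 peak in each list (bars), its summit (triangles) and the 8 YY1 matches (green lines), by distance from the outermost Peg3 start in base pairs. The male peaks are 2124 and 2019 bp wide and the female peaks 1353 and 1479 bp, ending nearer the start site in males.

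Igf2r (chr17:12875272-12962530) had a promoter DHS in all 4 lists. Region 1 (chr17:12962166-12963024), over the outermost start and CpG-rich, with 92 CpG, had fold enrichments of 4.87 in B6 males and 3.21 in B6 females, and 4.08 in CAST males and 3.57 in CAST females. Fold enrichment was higher in males at most regions of the genome, and relative to the median of all shared regions the log2 male to female ratio of region 1 was 0.20 in B6 (percentile 77.4) and -0.06 in CAST (percentile 40.9). Inside the gene, 5 further regions were each found in 1 or 2 lists and none in all. Region 2 (chr17:12952303-12952944), in an intron, reached 2.18 in B6 males and 2.28 in CAST males and had no female peak. These were only 1.12 and 1.02 times the lowest value callable in the female list of the same strain. Regions 4 and 5 lay 1002 and 490 bp from a start site of Airn, the antisense noncoding RNA that silences paternal Igf2r, and were in male CAST alone, with 2.59 and 2.38. The DNA around the summit of region 4 had an observed over expected CpG ratio of 0.80 and 2 matches to TGCCGC. Region 3 (male B6, 3.17) and region 6 (female CAST, 3.24) were each in a single list.

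The other 5 regions, 7 to 11, lay past the end of the gene, and 3 of them were in all 4 lists. They are counted below and not described singly.

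Grb10 (chr11:11830511-11938686) carried the highest values of the group. Region 1 (chr11:11937196-11937464), over an annotated start site and centred 1356 bp from the outermost start, reached 3.41 in B6 males and 2.82 in CAST males and had no female peak. These were 1.76 and 1.26 times the lowest value callable in the female list of the same strain. Region 3 (chr11:11925485-11926388), over start sites and centred 12750 bp from the outermost start, was in all lists, with 3.22 in B6 males and 2.08 in B6 females, and 3.14 in CAST males and 3.49 in CAST females. In female CAST region 3 consisted of 2 peaks, of which the higher is given. Both promoter regions were rich in CpG, with observed over expected CpG ratios of 1.11 and 1.07 over the whole region, and region 3 held 4 matches to TGCCGC.

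The body of Grb10 held a cluster of intronic DHS. Region 4 (chr11:11874525-11875071), 63888 bp from the outermost start, was in males alone, at 4.63 (B6) and 4.59 (CAST), with summits 7 bp apart. These were 2.38 and 2.05 times the lowest value callable in the female lists, the largest such multiples among the 6 regions found in both male lists alone. Region 5 (chr11:11865587-11866225) had 4.82 in B6 males and 3.20 in B6 females, and 5.66 in CAST males and 4.92 in CAST females. Region 6 (chr11:11861882-11862759) had 3.73, 3.46, 5.65 and 3.36 in the same order. Regions 5 and 6 were therefore open in all lists and highest in male CAST. Region 7 (chr11:11860497-11861241), whose HNF1, STAT5 and FOXA matches are printed above, was in both CAST lists, with 3.03 in males and 2.27 in females, and in neither B6 list. The 2 peaks of region 7 shared 79 bp, their summits were 296 bp apart, and the 3 printed matches lay in the male peak and outside the female peak. When peaks were joined only at an overlap of 50% of both, region 7 no longer had the pattern. Those motif matches are in the B6 reference sequence, and the CAST sequence was not analysed here.

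At the 3′ end of Grb10, the strongest shared DHS lay just beyond the gene. Region 12 (chr11:11828313-11829169), 1342 bp past the annotated end, had fold enrichments of 8.55 in B6 males and 5.30 in B6 females, and 8.25 in CAST males and 7.36 in CAST females, between percentiles 82.8 and 92.0 of its lists, with summits within 40 bp of each other. Region 10 (chr11:11837435-11838151), over a coding exon and 468 bp from an annotated internal start, had 4.47, 2.69, 6.51 and 5.03 in the same order. In region 10 each CAST value was above both B6 values. Region 11, over a UTR exon, had 2.56 in B6 males, 2.99 in CAST males and 2.82 in CAST females.

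Grb10 also held 2 strong DHS that were found in a single list. Region 14 (chr11:11821702-11822483), 8028 bp past the gene, was in male B6 alone, with a fold enrichment of 11.3, a −log10 q of 123 and 183 reads at its summit over a background of 15.4. Region 9 (chr11:11845949-11846361), over a coding exon and an annotated start site inside the gene, was in male CAST alone, with a fold enrichment of 7.23, a −log10 q of 76.7 and 155 reads over a background of 20.6. Few single-list regions were as high: 4 of 7336 in male B6 had a q-value at least as low as region 14, itself included, and 9 of 7844 in male CAST one at least as low as region 9. Region 14 was 5.79 times the lowest value callable at the genome-wide background in female B6 and 5.92 times that in male CAST, and region 9 was 3.23 times that in female CAST and 3.81 times that in male B6. Neither region had a copy elsewhere in mm9 with at least 90% identity over 80% of its length, and the same held for all 38 regions. Shorter matches of at least 100 bases, at 90% identity or more, were found elsewhere for 2 regions, Grb10 region 12 and Igf2r region 8. Because the 4 libraries of a list were merged, how many of the animals carried these peaks was not tested. The remaining single-list regions of Grb10 were regions 2 (2.35) and 8 (2.52) in male B6 and region 13 (1.64) in male CAST.

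Cdkn1c (chr7:150644255-150646955) had a CpG-rich promoter DHS in 3 lists. Region 4 (chr7:150646460-150647200), over its start, had 2.66 in B6 males, 3.64 in CAST males and 2.98 in CAST females and was absent in female B6, with 79 CpG in the region. Its male B6 value was 1.37 times the lowest callable in female B6. The other 3 regions lay 12564 to 14749 bp upstream in and around Slc22a18, a neighbouring imprinted transporter gene. Regions 2 and 3 overlapped a Slc22a18 start site and region 1 lay 698 bp from one, so all 3 were promoter DHS of Slc22a18. Region 1 (chr7:150661704-150662279) had 2.65 in male B6 and 2.33 in male CAST, and region 3 (chr7:150659519-150660245) had 1.89 and 2.05, with no female peak at either. Region 2 had 2.55 in B6 males, 2.12 in B6 females and 2.1 in CAST males. At regions 1 and 3 the male CAST values were 1.04 and 0.92 times the lowest callable at the genome-wide background in female CAST.

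**Figure D3:**
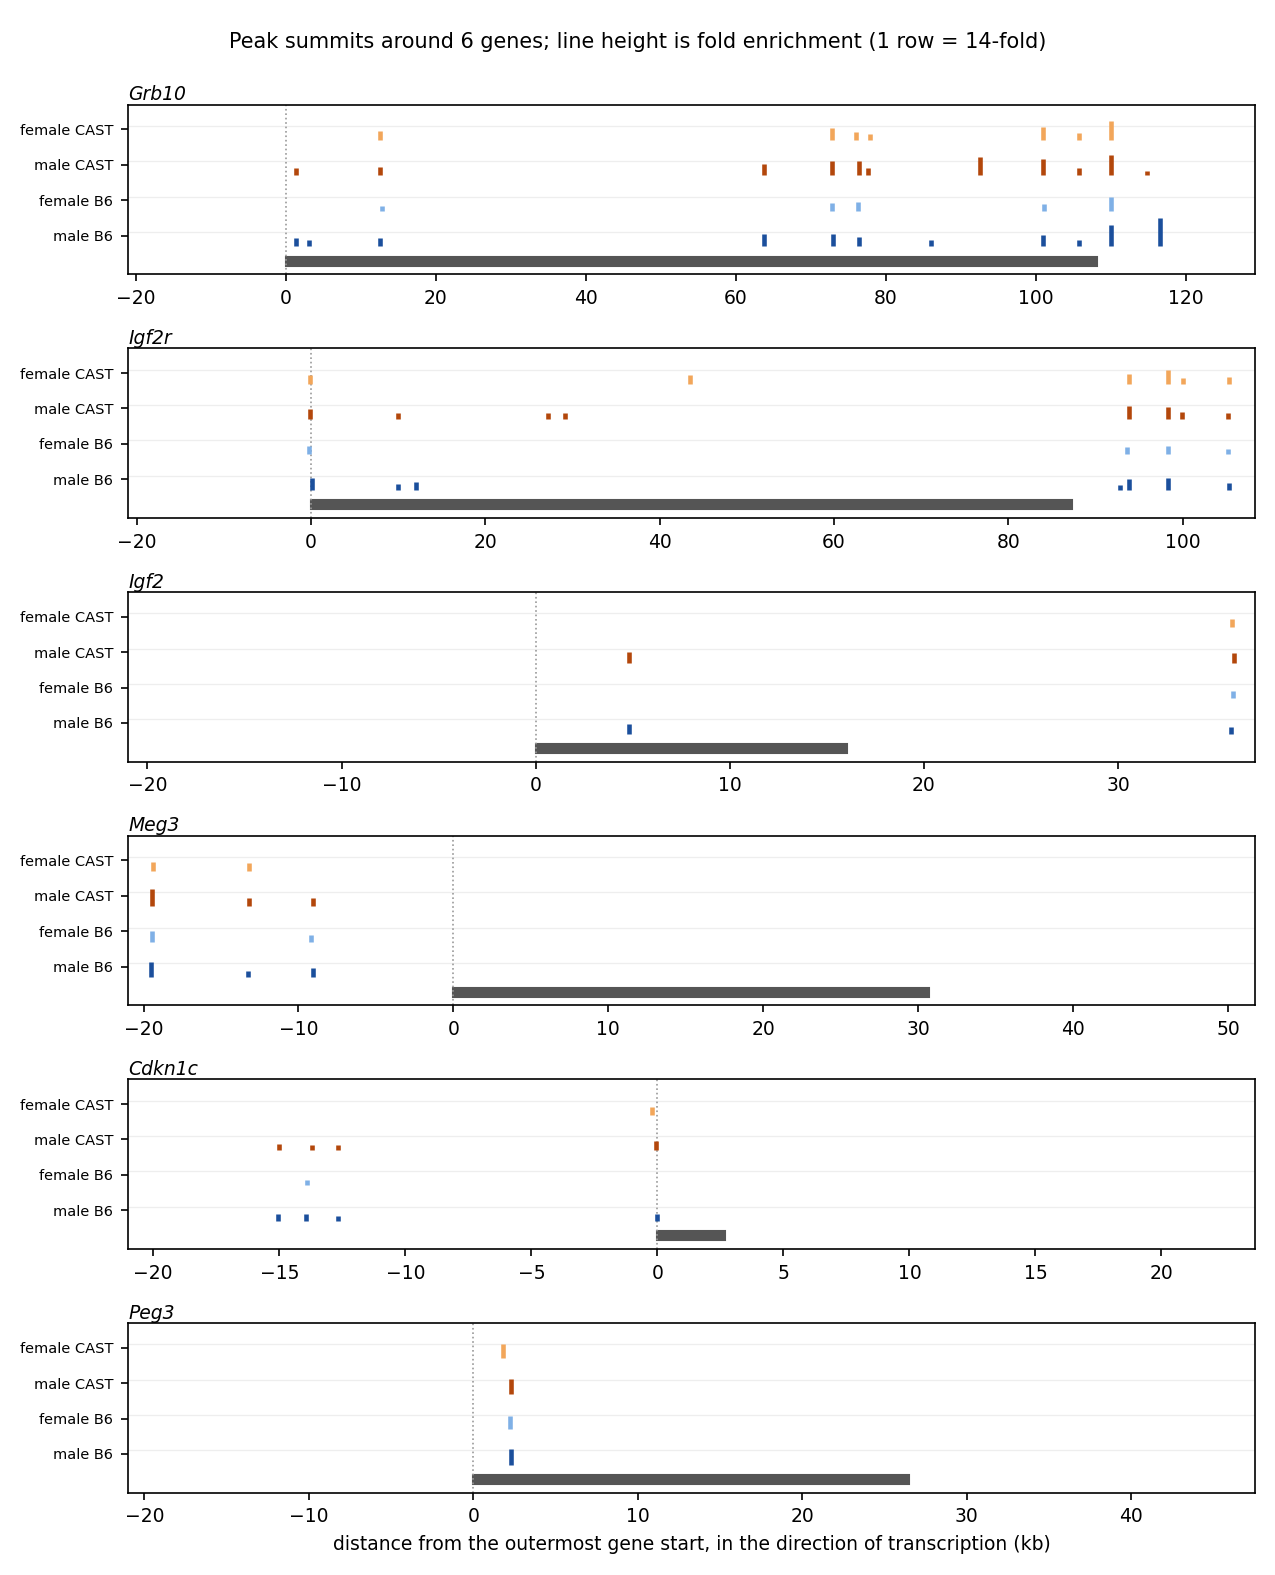
Peak summits around 6 genes, by distance from the outermost gene start in kilobases in the direction of transcription. Each row is a list, the height of a coloured line is the fold enrichment (1 row equals 14-fold) and the grey bar is the gene. Grb10 region 14 in male B6 (11.3) is the tallest line, and the 3 Meg3 regions all lie upstream of the gene.

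Presence across lists was then counted. The 4 lists held 29 of the 38 regions in B6 males and 15 in B6 females, and 30 in CAST males and 18 in CAST females. Over the whole genome they held 38751, 26271, 39562 and 24888 peaks in that order, so the female lists were shorter there as well. All 4 lists held 12 regions (31.6%), where 35.6% of all regions were in all lists. A single list held 13 regions, where 35.2% of all regions were. Both male lists and neither female list held 6 regions (15.8%), where 9.38% of all regions had that pattern: Igf2 region 1, Igf2r region 2, Grb10 regions 1 and 4 and Cdkn1c regions 1 and 3. Cdkn1c regions 1 and 3 both lay within 1 kb of a Slc22a18 start site. No member region was in both female lists and in neither male list, a pattern that 0.0622% of all regions had. Both CAST lists and neither B6 list held 2 regions, Igf2r region 10 and Grb10 region 7, where 3.62% of all regions had that pattern, and both B6 lists and neither CAST list held 0, where 3.32% did.

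The female lists were shorter and female CAST had the lowest genome-wide background, so the counts were repeated with the 24888 highest-scoring peaks of each list. Of the 6 regions found in both male lists alone, Igf2 region 1 and Grb10 region 4 then had the pattern, where 2.29% of all regions did. The regions in both CAST lists alone became 4, with Cdkn1c region 4 and Meg3 region 2 added to Igf2r region 10 and Grb10 region 7, where 5.72% of all regions had that pattern. With lists of equal size 9 of 29 member regions were in all 4 lists, where 47.9% of all regions were, and under a stricter limit 3 of 18 were, where 34.1% were. Grb10 region 12, Igf2r region 9 and Peg3 region 1 were in all 4 lists under the first setting and also under the stricter limit, a −log10 q of at least 15.7.

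**Figure D4:**
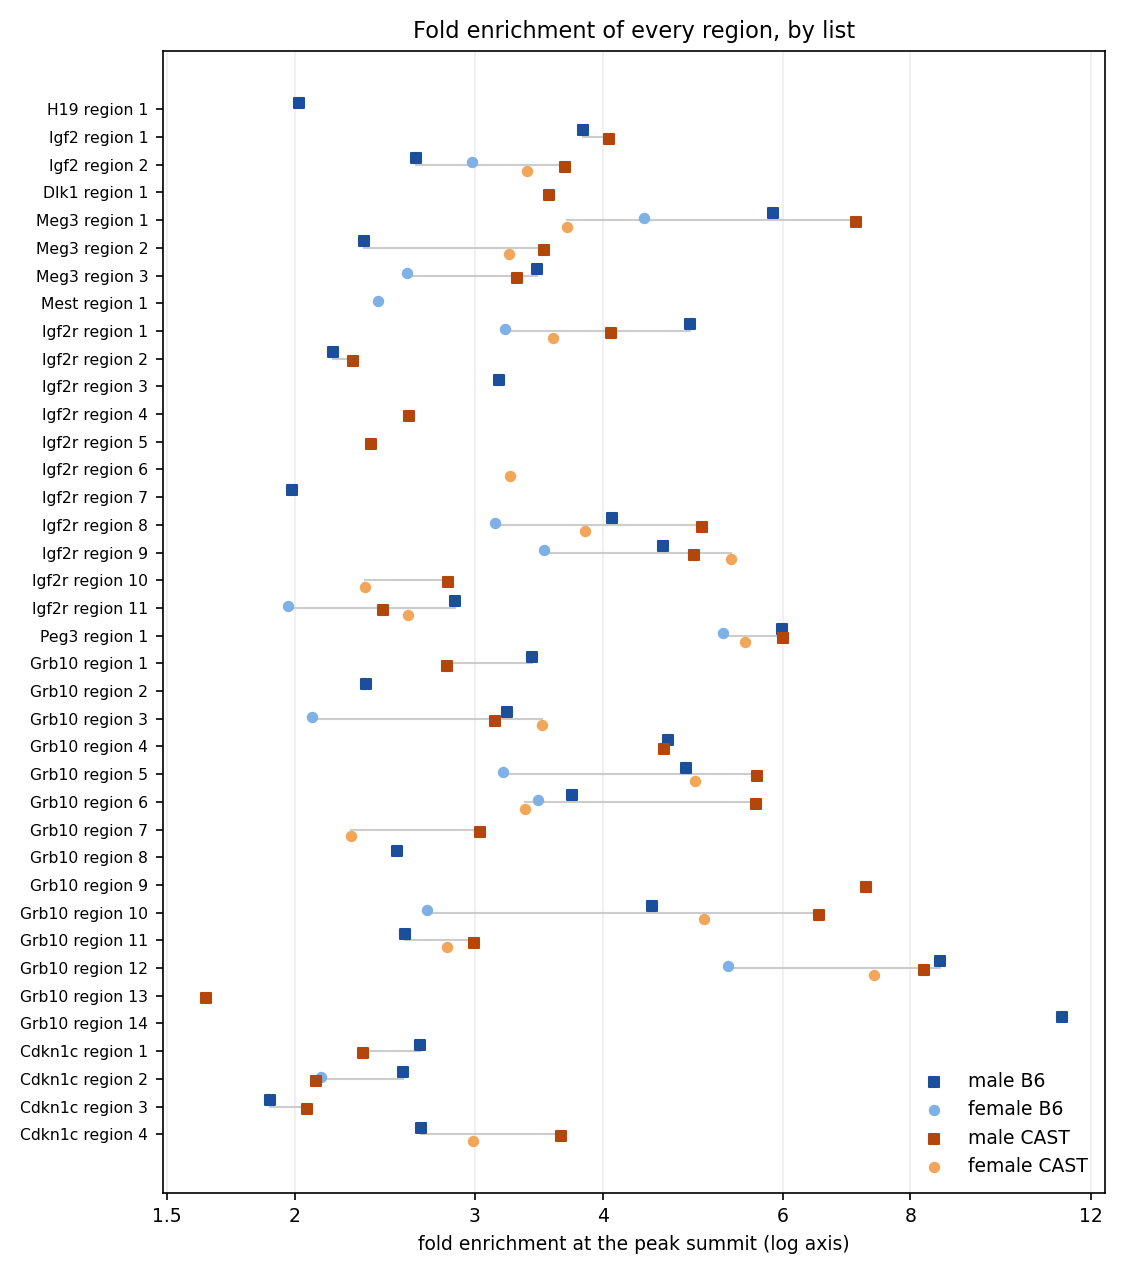
Fold enrichment at the summit (horizontal log axis) of each of the 38 regions (rows) in each list, with squares for male and circles for female lists. A missing symbol means that no peak was called in that list. Most regions lie between 2 and 6, the single symbol at 11.3 is Grb10 region 14, and the 4 symbols of Peg3 region 1 lie between 5.24 and 6.01.

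Heights were compared at regions present in both lists of a comparison. Fold enrichment was higher in the male list at most regions of the genome, with a median male to female ratio of 1.32 in B6 and 1.19 in CAST, and a median CAST to B6 ratio of 1.06 in males and 1.19 in females. Each log2 ratio was therefore centred on the median of all shared regions and called when it passed 1.5-fold. Between the sexes in B6, 0 of 14 member regions were called higher in males, where 2.62% of all shared regions were, and 0 lower, where 2.6% were. In CAST, 1 of 17 was called higher in males, Meg3 region 1, where 3.31% were, and 0 lower, where 2.56% were. The centred log2 ratio of Meg3 region 1 was 0.69 in CAST, percentile 98.2 of all shared regions, and its ratio of summit pileups, each divided by its local background, was 1.84 (exact 95% interval 1.24 to 2.81). In B6 its centred log2 ratio was 0.02, with a background-scaled pileup ratio of 1.33 (0.97 to 1.83), so the difference was called in 1 strain, and the difference between the strains was not tested.

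Between the strains in males, 0 of 23 member regions were called higher in CAST, where 6.68% of all shared regions were, and 0 lower, where 4.49% were. In females 1 of 12 was called higher in CAST, Grb10 region 10, where 4.97% were, and 0 lower, where 3.42% were. Its centred log2 ratio was 0.65 in females, percentile 96.3, with a background-scaled pileup ratio of 1.92 (1.32 to 2.81), and 0.46 in males, percentile 89.7, with a background-scaled pileup ratio of 1.45 (1.16 to 1.82). Both intervals lay above the median ratio of all regions in that comparison. No member region was called in both strains or in both sexes. The counting intervals of 14 of 14, 15 of 17, 21 of 23 and 11 of 12 member regions, in the order of the comparisons above, held the median ratio of all regions, and for Grb10 region 6 the pileup in male CAST could not be recovered, so 2 of its ratios had no interval.

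**Figure D5:**
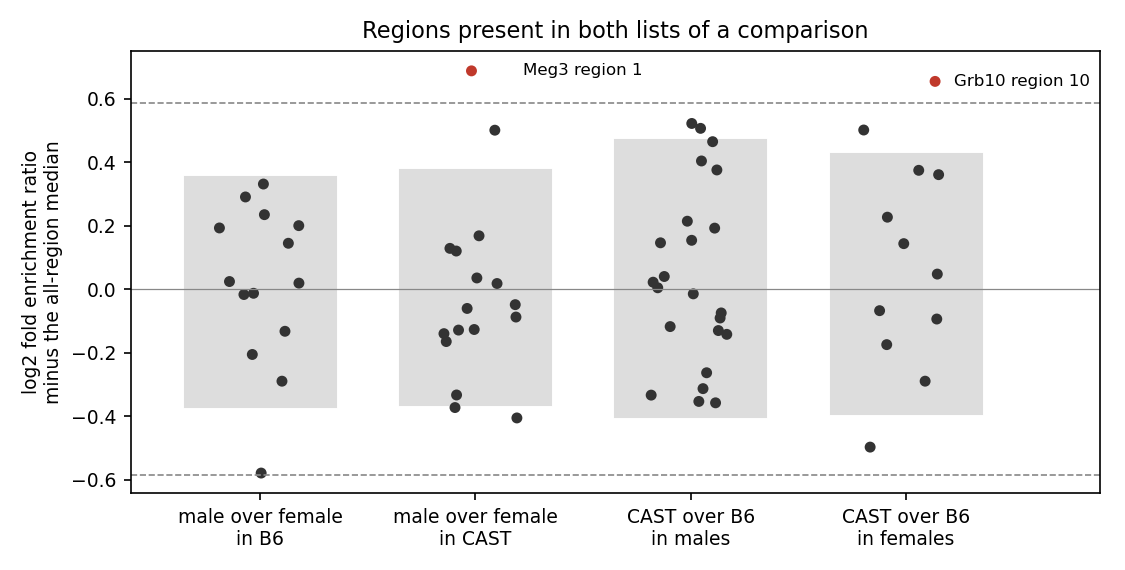
Centred log2 ratio of fold enrichment (vertical axis) of each member region present in both lists, for the 4 comparisons. Grey boxes span the 10th to 90th percentile of all shared regions, dashed lines mark 1.5-fold, and the red points are Meg3 region 1 (0.69) and Grb10 region 10 (0.65).

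Summit positions were compared between lists. Among 25 member regions present in 2 or more lists, the summits lay within 100 bp of each other in 12 (48%), where 54.8% of all such regions did. Among the 12 present in all lists it was 4, where 54.5% did. The summit of Peg3 region 1 spanned 508 bp, that of Grb10 region 3 spanned 367 bp and that of Grb10 region 6 spanned 342 bp. At Igf2 region 1 the span was 0 bp and at Grb10 region 12 it was 40 bp.

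Motif matches were counted in the 300 bases around the summit of every region, on both strands, a palindrome once. The CTCF core GGNGGCAG was in 7 of 38 member regions and in 11.1% of all regions. TGCCGC (ZFP57) was in 8 of 38 and in 8.26%, in Igf2r regions 1, 4 and 7, Grb10 regions 1, 3, 11 and 12 and Cdkn1c region 1. Grb10 region 3 had the most ZFP57 matches. For factors of the adult hepatocyte, TTGCNNAA (CEBP) was in 6 and in 17.2%, TTCNNNGAA (STAT5) in 5 and in 10.2%, TGTTTAC (FOXA) in 4 and in 6.59%, GTTAATNAT (HNF1) in 1 and in 2.03%, and CAAAGTCCA (HNF4A) in 0 and in 1.67%. AANATGGCG (YY1) was in 0 of these short windows and in 1.48% of all, since the 8 matches at Peg3 lay outside the 300 bases around its highest summit. An observed over expected CpG ratio above 0.6 was found for 13.2% of member regions and 20.7% of all regions.

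Of 44 further imprinted genes listed, 41 were found in the annotation, and 14 had a promoter DHS in all 4 lists, 6 in 1 to 3 lists and 21 in none, where 39.1% of annotated genes had one in all lists and 49% in none. Their windows held 102 regions, of which 33 (32.4%) were in all lists, where 35.6% of all regions were. Several of the 14 are also widely expressed genes, such as Ube3a, a ubiquitin ligase, with fold enrichments of 9.74 in B6 males and 7.69 in B6 females, and 9.73 in CAST males and 9.15 in CAST females. No promoter DHS was called in any list at Snrpn, Ndn, Magel2, Nnat, Dio3, Ascl2 or Zim1. The albumin family (Alb, Afp, Afm and Gc), with 4 genes, had 32 regions and 11 (34.4%) in all lists, and 39 Hox genes, which pattern the embryo, had 23 regions and 0 in all lists.

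The 20 kb limit decided a few regions. Igf2 region 2 and Meg3 region 1, at 19398 and 19066 bp from their genes, were the outermost inside it. Just outside lay 3 regions at Igf2r, 20733, 22551 and 22740 bp away, of which the last 2 were in all lists, and 1 at Meg3, 23933 bp away and in both male lists.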

How the data were processed

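The data are 16 DNase-seq libraries of liver nuclei, 4 for each sex and strain, kept after the authors set aside 1 library of each group for its quality, and groups were taken from the library titles. Per the submitters' processing notes and the study's methods, the authors kept uniquely mapping Bowtie2 alignments, to mm9 for B6 and to mm9 carrying known CAST variants for CAST, converted CAST coordinates to mm9, removed blacklisted and duplicate-only peaks, and called peaks with MACS2. The 4 deposited lists, 1 for each sex and strain, were called on merged libraries. The deposited fold enrichment is a ratio of summit pileup to local background, with a pseudocount of 1. The deposited −log10 p-value and −log10 q-value, and the score, refer to that peak within its list, and the deposited summit is an offset from the peak start. Depth was not given in the lists; summit pileup and background were recovered from the fold and the p-value for the 97.1% to 99.8% of peaks whose pileup came out within 0.02 of a whole number, and the backgrounds need not be whole.

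Peaks overlapping by at least 1 bp were joined. Gene positions and 75543 start sites came from the GENCODE annotation of mm9, and a promoter DHS lay within 1 kb of a start site. Every gene of the group was described, with its regions at a start site, its highest region and those confined to 1 sex or strain, except that the regions past the end of Igf2r, its highest and its CAST-only region among them, are given as counts only. The genes, gene lists and motifs were chosen with earlier results of these data known. Height was compared as the log2 ratio of fold enrichment, centred on the median of all shared regions, with a limit of 1.5-fold. Ratios of summit pileups were divided by the ratio of their local backgrounds, and their intervals are exact and cover counting error only, since reads are not independent molecules. Alternatives were an overlap of 50% of both peaks, a −log10 q of at least 15.7, lists of equal size (24888 peaks), windows of 10 and 50 kb, peaks within 500 bp joined, promoter limits of 500 bp and 2.5 kb, and for ratios no centring, centring on regions in all 4 lists, pileup over background, and percentile ranks. Scripts were tested on simulated data and ran in Python 3.11.15 with NumPy 2.4.6, SciPy 1.17.1, Matplotlib 3.10.9 and BLAST 2.17.0. Sequences were read from the mm9 genome, and regions were compared with it by BLAST. A few sequences and 1 neighbouring gene are not reported here.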

Additional observations from a re-analysis of the deposited data

How the results depend on the processing

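No paired analysis was possible because the libraries of each group were merged before peaks were called, so that leaving out 1 replicate at a time was not possible either. With a −log10 q of at least 15.7 the 38 regions became 18, while all 51482 regions became 25340. The peaks became 14 in B6 males and 5 in B6 females, and 17 in CAST males and 6 in CAST females. Regions in all 4 lists became 3 (34.1% of all regions at that limit) and those in both CAST lists alone 0 (2.34%). Those in a single list became 5 (27.8%), and genes with a promoter DHS in all lists 0 of 10 (24.2% of annotated genes). These percentages are shares of all features, not of the members. With lists of equal size the male B6 peaks became 18, regions in both male lists alone 2 and those in both CAST lists alone 4. With windows of 10 kb, which held 27 regions, the female B6 peaks became 9 and regions in both CAST lists alone 1, and with 50 kb, which held 52 regions, the female B6 peaks became 23 and regions in all lists 20, where 35.6% of all regions are. Requiring an overlap of 50% of both peaks left 1 region in both CAST lists alone, Igf2r region 10, without Grb10 region 7 (2.97% of all regions). The causes of these shifts were not tested, beyond the fewer or more peaks each setting admits by construction. Joining peaks within 500 bp and the other promoter limits moved no count by over 1.5 times, and the 2 called ratios, Meg3 region 1 (0.69) and Grb10 region 10 (0.65), kept their direction under all 4 alternatives. An absence has to be read against the lowest fold enrichment callable at the genome-wide background. This was 2.24 in female CAST against 1.90 in male CAST, and 1.94 in female B6 against 1.90 in male B6. The part of depth in the absences was not tested, and no spread between animals could be computed.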

Other observations

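The IGF system and the genes of the fetal liver programme, 15 genes in all, had 128 regions in their windows, of which 39 (30.5%) were in all 4 lists, where 35.6% of all regions were. A promoter DHS was found in all lists for 5 genes, in 2 or 3 lists for 3 and in none for 7, where 39.1% of annotated genes had one in all lists and 49% in none. The 5 were Insr, the insulin receptor, Igfbp1 and Igfbp2, which encode binding proteins for IGFs, and Zbtb20 and Zhx2, which encode repressors of Afp in the postnatal liver. Fold enrichment at the Zbtb20 promoter was 8.79 in B6 males and 8.05 in B6 females, and 8.73 in CAST males and 8.05 in CAST females. At the Zhx2 promoter it was 4.32, 2.81, 4.58 and 5.46 in the same order.

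Afp, the fetal albumin that these repressors act on, had 8 regions in its window and no promoter DHS in any list. The other genes without a promoter DHS were Gpc3, Igf2bp1, Igf2bp3, Hmga2, Lin28b and Trim71. Igf1, the growth factor that liver makes after birth, had 15 regions in its window, and its promoter DHS was found in male B6 (2.69), female B6 (2.53) and male CAST (2.56) but not in female CAST. The promoter DHS of Igf1r, its receptor, showed the same pattern of lists, with 2.72, 2.40 and 2.74. All these promoter values lay near the lowest fold enrichment callable at the genome-wide background in female CAST, 2.24.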
